A study of Mus musculus with 2 samples.

Results

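Kinesin-2 motors carry cargo along microtubules, and their 5 subunit genes in the mouse, Kif3a, Kif3b, Kif3c, Kifap3 and Kif17, are described here across the cell classes of the kidney. They were chosen as the named members of the family and were looked up by gene symbol among the 31053 genes of the deposited count matrices, where each was found. Transcript molecules, counted as unique molecular identifiers (UMIs), were measured in single kidney cells by 10x Chromium 3′ sequencing. The Kif3aΔTub library, from 5-week-old mice given the genotype KO, held 7950 barcodes, and the WT library, from 5-week-old mice, held 6938. Δ marks the deletion of Kif3a, and the promoter that drives it, the exons removed, and the number and strain of the mice in each library are not given in the sources used here.

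Kif3a and Kif3b are motor proteins that pair with each other, and the accessory protein Kifap3 joins the pair to its cargo. This heterotrimer moves intraflagellar transport (IFT) trains from the base to the tip of the primary cilium, the single sensory antenna of most tubule cells, and loss of Kif3a from tubule cells abolishes cilia and gives rise to kidney cysts. Kif3c is a second motor able to pair with Kif3a, best known from neurons, and Kif17 works as a homodimer that enters cilia and neuronal dendrites.

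The 5 genes lie apart on the plus strands of GRCm38. Kif3a (ENSMUSG00000018395) spans chr11:53567379-53601967, Kif3b (ENSMUSG00000027475) spans chr2:153291413-153333390, Kif3c (ENSMUSG00000020668) spans chr12:3365132-3406494, Kifap3 (ENSMUSG00000026585) spans chr1:163779583-163917109 and Kif17 (ENSMUSG00000028758) spans chr4:138250435-138301967. The longest coding transcript of Kif3a has 18 exons, of Kif3b 9, of Kif3c 8, of Kifap3 21 and of Kif17 15. No stretch of 50 bases was shared between transcripts of any 2 members. The 3′ end of Kif3c overlaps the antisense gene 1110002L01Rik, to which 701 UMIs were assigned over all barcodes, and Kif17 overlaps Sh2d5, with 39 UMIs.

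The promoters of the heterotrimer are shown because the targeted gene and its partners are transcribed from separate start sites. Each line holds the 200 bases before the RefSeq start in GRCm38.p6, plus strand, at chr11:53567169-53567368 for Kif3a, chr2:153291216-153291415 for Kif3b and chr1:163779383-163779582 for Kifap3. Capitals mark matches, on either strand, to the CCAAT box (letters CCAAT), the GC box (letters GGGCGG) and the core GTTGCC of the X-box bound by RFX factors, which are known for driving ciliary genes.
Kif3a: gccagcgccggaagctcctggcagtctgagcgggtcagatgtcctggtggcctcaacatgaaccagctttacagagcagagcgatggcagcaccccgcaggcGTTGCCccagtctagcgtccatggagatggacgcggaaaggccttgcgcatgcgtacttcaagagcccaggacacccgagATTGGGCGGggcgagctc
Kif3b: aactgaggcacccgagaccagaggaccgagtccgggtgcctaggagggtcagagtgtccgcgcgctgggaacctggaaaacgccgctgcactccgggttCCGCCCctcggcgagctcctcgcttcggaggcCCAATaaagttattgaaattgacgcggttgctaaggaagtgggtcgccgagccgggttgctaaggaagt
Kifap3: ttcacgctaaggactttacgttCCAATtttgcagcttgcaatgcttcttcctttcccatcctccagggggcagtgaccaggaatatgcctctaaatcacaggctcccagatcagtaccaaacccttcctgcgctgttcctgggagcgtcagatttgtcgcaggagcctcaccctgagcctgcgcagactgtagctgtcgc
In Kif3a the reverse CCAAT box at -18 to -14 and the GC box at -15 to -10 from the start share bases, and the X-box core lies at -98 to -93. All 3 promoters hold a CCAAT box, which 30.0% of 27025 promoters of that length hold. The GC box, found in 31.3% of them, lies in Kif3a and Kif3b. The X-box core, found in 8.76%, lies in Kif3a and also in Kif3c (-176 to -171) and Kif17 (-73 to -68). A match describes these letters and not a bound site.

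After cells with under 500 UMIs, under 200 genes or at least 50% mitochondrial UMIs and called doublets had been removed, 7066 Kif3aΔTub cells with 79060495 UMIs and 4317 WT cells with 42468386 UMIs were kept. Median depth was close, at 7799 UMIs per Kif3aΔTub cell and 7771 per WT cell, while the median mitochondrial share was 7.54% in the Kif3aΔTub library and 26.8% in WT. Barcode sequences found in both libraries numbered 20, of which 17 were among kept cells. Classes were named from marker genes after clustering without the 5 members, and 6 classes had at least 100 cells in each library. Every named cluster of these classes passed at least 4 of its markers, with between 1 and 5 of them among its 10 leading genes. Aqp2 and Fxyd4 were among the leading genes of most principal-like clusters, beside Lcn2 in 2 of them, while Sprr2f and Krt19 led cluster 12. Calb1 was also among the leading genes of principal-like clusters 13 and 30, and Slc12a3 among those of cluster 12. Both are distal convoluted tubule markers here, so the principal-like class may include cells from outside the collecting duct. Slc12a1 and Umod were among those of both thick ascending limb-like clusters. With 1 library per genotype no difference has a replicate check. All intervals are 95% and cover counting error only, and genotype cannot be told apart from other differences between the mice or preparations.

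Kif3a, the targeted gene, was still detected in the Kif3aΔTub library. It had 966 UMIs in Kif3aΔTub cells, or 12.2 per 1000000 UMIs (CPM, 11.5 to 13.01), against 438 UMIs and 10.3 CPM (9.37 to 11.3) in WT cells. These totals mix different cell types, since principal-like cells made up 2552 of the Kif3aΔTub cells and 175 of the WT cells. The counted tags lie at the 3′ end of the transcript, and whether that end is inside the deleted part is not given, so the level checks neither the deletion nor the label.

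Kif3a was lower in the Kif3aΔTub library in the principal-like and intercalated-like classes and not in the proximal tubule-like class. These 2 are called the collecting duct classes below, after their markers, although cells of neighbouring segments may be among them. Principal-like cells, which reabsorb water and sodium under hormonal control, had 348 Kif3a UMIs in the Kif3aΔTub library (10.4 CPM, 9.35 to 11.6) and 28 in WT (22.7 CPM, 15.1 to 32.8). The log2 ratio of Kif3aΔTub over WT was -1.15 (-1.68 to -0.51), that is 0.451 of the WT level. Intercalated-like cells, which secrete acid or base, had 38 UMIs in the Kif3aΔTub library (8.99 CPM, 6.36 to 12.3) and 48 in WT (15.2 CPM, 11.2 to 20.1), a log2 ratio of -0.75 (-1.41 to -0.11). In both classes the interval of the ratio lay below 0, but with each cell thinned to 2000 UMIs, which leaves few Kif3a UMIs, it included 0 in principal-like (-1.19, -2.44 to 0.64) and intercalated-like cells (-0.48, -2.26 to 1.39).

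Thick ascending limb-like cells, which reabsorb salt without water, had 77 Kif3a UMIs in the Kif3aΔTub library (10.1 CPM, 7.93 to 12.6) and 36 in WT (11.2 CPM, 7.82 to 15.5). Their log2 ratio of -0.16 had an interval from -0.74 to 0.46. Distal convoluted tubule-like cells, the target of thiazide diuretics, had 76 UMIs in the Kif3aΔTub library (21.0 CPM, 16.6 to 26.3) and 21 in WT (13.5 CPM, 8.33 to 20.6), with a log2 ratio of 0.62 (-0.07 to 1.41). In neither class did the counts set the genotypes apart.

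Proximal tubule-like cells, which take up most of the filtered solutes, had 165 Kif3a UMIs in the Kif3aΔTub library (14.8 CPM, 12.6 to 17.2) and 266 in WT (8.53 CPM, 7.54 to 9.62). Here the Kif3aΔTub level was the higher one, with a log2 ratio of 0.79 (0.50 to 1.08). Endothelium-like cells, which are not tubule cells, had 44 UMIs in the Kif3aΔTub library (25.03 CPM, 18.2 to 33.6) and 11 in WT (17.0 CPM, 8.46 to 30.3), a log2 ratio of 0.51 (-0.41 to 1.66).

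The order of the classes by Kif3a level differed between the libraries. In the Kif3aΔTub library the order among the 6 classes was endothelium-like, distal convoluted tubule-like, proximal tubule-like, principal-like, thick ascending limb-like and intercalated-like, and the last 3, at 10.4, 10.1 and 8.99 CPM, had overlapping intervals. In WT the order was principal-like, endothelium-like, intercalated-like, distal convoluted tubule-like, thick ascending limb-like and proximal tubule-like. The interval of WT principal-like cells overlapped that of every WT class except the proximal tubule-like one, and neighbours in either order overlapped, except proximal tubule-like over principal-like cells of the Kif3aΔTub library. Smaller classes gave levels only. Mural-like cells, the muscle-like cells around vessels, had 29.6 CPM (13 UMIs) in the Kif3aΔTub library and 38.5 CPM (7 UMIs) in WT, and podocyte-like cells had 31.3 CPM (3 UMIs) in the Kif3aΔTub library and 50.5 CPM (6 UMIs) in WT.

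The median mitochondrial share was lower in Kif3aΔTub in every compared class, while the Kif3a ratios went both ways. Mitochondrial UMIs enter every CPM through the class total. Median shares in principal-like cells were 7.16% in Kif3aΔTub and 14.1% in WT, and in intercalated-like cells 10.9% in Kif3aΔTub and 24.9% in WT. The gap was wider in distal convoluted tubule-like cells, at 11.4% in Kif3aΔTub and 37.1% in WT, and in thick ascending limb-like cells, at 7.43% in Kif3aΔTub and 34.1% in WT. Proximal tubule-like cells had 19.8% in Kif3aΔTub and 27.9% in WT, and endothelium-like cells 4.00% in Kif3aΔTub and 5.86% in WT. The median gene, among genes with at least 100 UMIs, had a log2 ratio of 0.03 in principal-like and endothelium-like cells, but 0.51 in distal convoluted tubule-like, 0.46 in thick ascending limb-like, 0.26 in proximal tubule-like and 0.24 in intercalated-like cells. Relative to the median gene, the Kif3a difference was -1.18 in principal-like, -0.99 in intercalated-like and -0.62 in thick ascending limb-like cells. It was 0.11 in distal convoluted tubule-like, 0.53 in proximal tubule-like and 0.49 in endothelium-like cells. Of all genes with at least 20 UMIs in the class, 6.32% lay lower than Kif3a in principal-like cells and 4.67% in intercalated-like cells, against 80.4% in proximal tubule-like and 84.2% in endothelium-like cells. With cells held to a mitochondrial share under 25%, the Kif3a ratio was -1.21 (-1.78 to -0.52) in principal-like cells, -0.77 (-1.60 to 0.13) in intercalated-like cells and 0.45 (0.08 to 0.81) in proximal tubule-like cells, so the intercalated-like interval then reached 0.

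**Figure D1:**
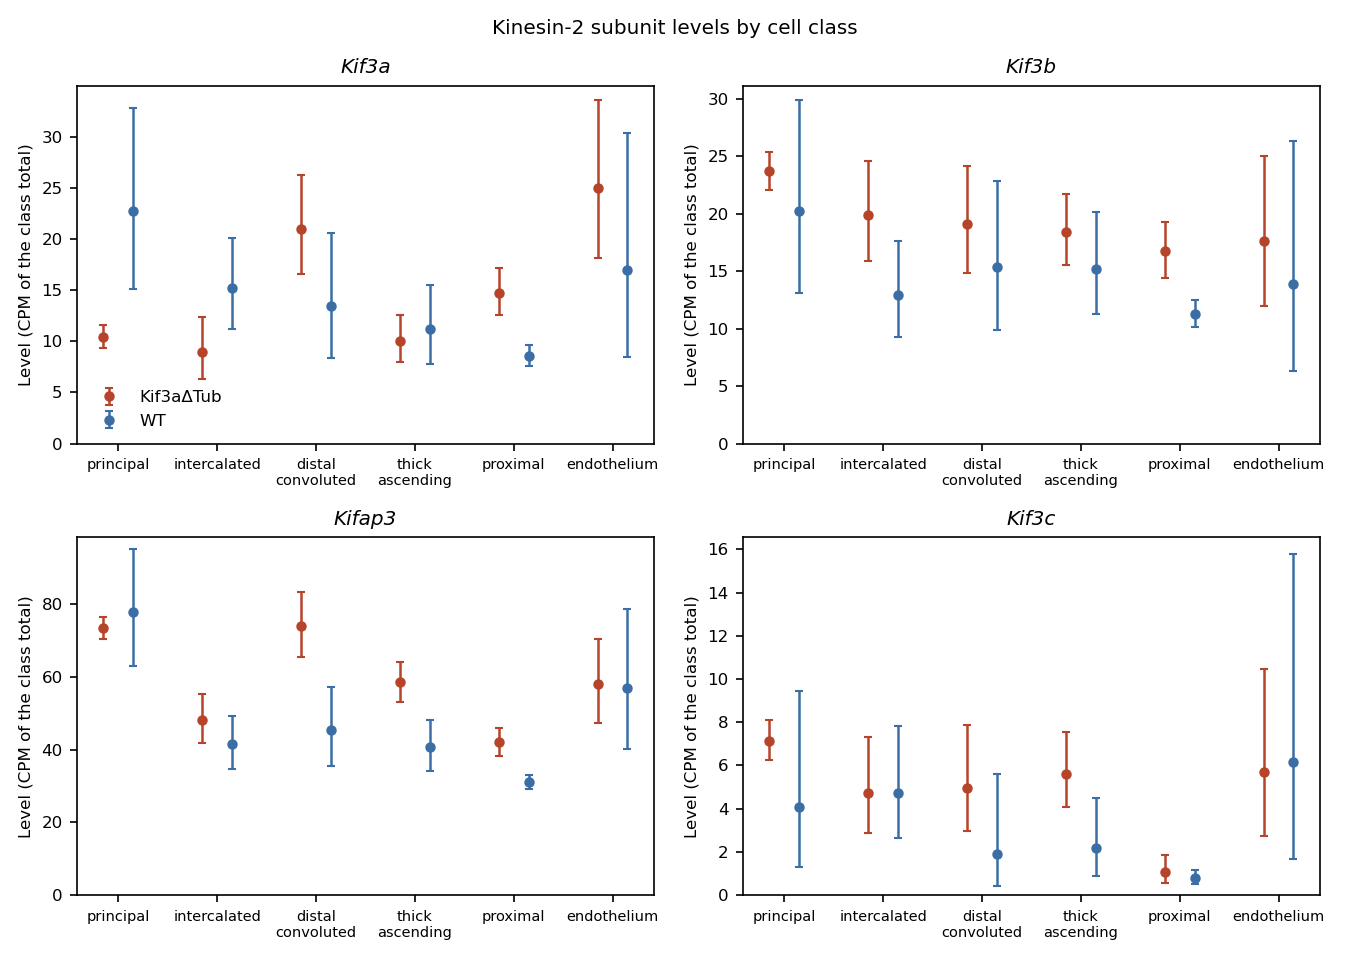
Levels of 4 kinesin-2 subunits in CPM of the class total (vertical axes from 0), by cell class, with Kif3aΔTub in red to the left of WT in blue; points are single libraries and bars are exact 95% Poisson intervals. Kif3a is at 10.4 CPM in Kif3aΔTub and 22.7 CPM in WT principal-like cells, while the Kif3b and Kifap3 intervals of that class overlap between the libraries.

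The partner motor Kif3b did not share the low level of Kif3a in the collecting duct classes. Principal-like cells had 791 Kif3b UMIs in the Kif3aΔTub library (23.7 CPM, 22.1 to 25.4) and 25 in WT (20.3 CPM, 13.1 to 29.9), a log2 ratio of 0.20 (-0.35 to 0.86). Intercalated-like cells had 84 UMIs in the Kif3aΔTub library (19.9 CPM) and 41 in WT (12.96 CPM), a log2 ratio of 0.61 (0.06 to 1.19). That interval reached 0 by trimmed mean of M values (0.35, -0.19 to 0.94), by median of ratios, without mitochondrial genes in the total and at the 25% limit. Kif3b was also higher in Kif3aΔTub proximal tubule-like cells, at 16.7 CPM (187 UMIs) against 11.3 CPM (351 UMIs) in WT, a log2 ratio of 0.57 (0.31 to 0.83), which was 0.25 (-0.01 to 0.51) by trimmed mean of M values and 0.25 (-0.02 to 0.50) by median of ratios. In the other 3 classes it was between 17.6 and 19.1 CPM in Kif3aΔTub cells and between 13.9 and 15.4 CPM in WT cells, with log2 ratios of 0.27 to 0.29 whose intervals include 0. Over the 6 classes Kif3b ranged from 16.7 to 23.7 CPM in Kif3aΔTub and from 11.3 to 20.3 CPM in WT, while Kif3a ranged from 8.99 to 25.03 CPM in Kif3aΔTub and from 8.53 to 22.7 CPM in WT.

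Kifap3, the accessory subunit, gave the most UMIs of the family in every compared class. In principal-like cells it had 2452 UMIs in the Kif3aΔTub library (73.4 CPM, 70.5 to 76.4) and 96 in WT (77.9 CPM, 63.1 to 95.1), a log2 ratio of -0.09 (-0.38 to 0.22), which with each cell thinned to 2000 UMIs was -0.81 (-1.32 to -0.23). It was higher in Kif3aΔTub than in WT in distal convoluted tubule-like cells (74.1 against 45.5 CPM in WT), thick ascending limb-like cells (58.5 against 40.7 CPM in WT) and proximal tubule-like cells (42.1 against 31.1 CPM in WT), with log2 ratios of 0.70, 0.52 and 0.44 and intervals above 0. By trimmed mean of M values and by median of ratios all 3 intervals included 0. Relative to the median gene these were 0.19, 0.06 and 0.18, so most of each difference was shared with the median gene. In intercalated-like cells Kifap3 had 48.2 CPM in Kif3aΔTub and 41.4 CPM in WT, and in endothelium-like cells 58.0 CPM in Kif3aΔTub and 57.0 CPM in WT. UMI counts carry 1 tag per molecule, yet capture differs between genes, so a level of Kifap3 above that of the motors is not read as an excess of the protein.

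Kif3c, the alternative partner of Kif3a, was low in every class. Over all kept cells it had 439 UMIs in the Kif3aΔTub library (5.55 CPM) and 65 in WT (1.53 CPM), while proximal tubule-like cells, at 1.07 CPM in Kif3aΔTub and 0.770 CPM in WT, made up 1034 of the Kif3aΔTub and 3004 of the WT cells. Principal-like cells had 238 UMIs in the Kif3aΔTub library (7.12 CPM, 6.25 to 8.09) and 5 in WT (4.05 CPM, 1.32 to 9.46), a log2 ratio of 0.68 (-0.43 to 2.45). The one class whose interval lay above 0 was thick ascending limb-like, with 43 UMIs in Kif3aΔTub cells (5.61 CPM) and 7 in WT cells (2.17 CPM), a log2 ratio of 1.29 (0.21 to 2.77). It reached 0 by trimmed mean of M values (0.88, -0.20 to 2.36), by median of ratios, without mitochondrial genes and at the 25% limit. Intercalated-like cells had 4.73 CPM in Kif3aΔTub and 4.74 CPM in WT. Reads from the antisense gene at its 3′ end could add to Kif3c only if strand was lost in counting, which was not tested.

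Kif17 was close to absent at this depth. It had 11 UMIs in Kif3aΔTub cells and 4 in WT cells among all kept cells, with 3 Kif3aΔTub UMIs and 1 WT UMI in principal-like cells and the same pair of counts in intercalated-like cells. Endothelium-like cells had no Kif17 UMI in either library. No ratio is given for so few molecules.

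A count of members past a fold of 1.5 relative to the median gene shows how the family stood beside all genes. In principal-like cells 18.4% of 12960 genes were at least 1.5-fold lower in Kif3aΔTub and 21.4% at least 1.5-fold higher, and of the 4 members with at least 20 UMIs Kif3a was among the lower and Kif3c among the higher. In intercalated-like cells, where the shares of genes were 12.3% lower and 13.9% higher, Kif3a was lower and no member was higher. In thick ascending limb-like cells, with 19.1% lower and 22.2% higher, Kif3a was lower and Kif3c higher. In distal convoluted tubule-like cells, with 19.6% lower and 19.9% higher, Kif3c was higher, and neither proximal tubule-like cells (14.0% lower, 17.9% higher) nor endothelium-like cells (11.7% lower, 11.9% higher) had a member past the fold. Kif3b and Kifap3 were past it in none of the 6 classes. Kif3c passed the minimum of 20 UMIs in its 3 classes mainly through the Kif3aΔTub library, for example with 18 Kif3aΔTub and 3 WT UMIs in distal convoluted tubule-like cells, where its ratio had an interval of -0.40 to 3.78 and was -1.0 at the 25% limit. Its place among the higher genes is therefore no support for a difference.

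Because the subunits are counted in the same cells, the ratio of Kif3a to a partner inside 1 library does not depend on the class total, although it can still differ with the mitochondrial share of the cells chosen. In principal-like cells there were 0.440 Kif3a UMIs per Kif3b UMI in the Kif3aΔTub library (348 to 791) and 1.12 in WT (28 to 25). Kif3a was therefore 30.6% of the motor pair in Kif3aΔTub (27.9% to 33.3%) and 52.8% in WT (38.6% to 66.7%). The log2 ratio of these balances was -1.35 (-2.21 to -0.49).

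Intercalated-like cells gave nearly the same values. Kif3a was 31.1% of the pair in Kif3aΔTub (38 to 84 UMIs, 23.1% to 40.2%) and 53.9% in WT (48 to 41 UMIs, 43.0% to 64.6%), a log2 balance of -1.36 (-2.25 to -0.50). The proximal tubule-like balance differed little, at 46.9% in Kif3aΔTub and 43.1% in WT, with a log2 value of 0.22 (-0.17 to 0.61). The higher Kif3a level of that class was thus accompanied by a higher Kif3b level, and under a mitochondrial limit of 25% its balance was -0.24 (-0.77 to 0.28). The distal convoluted tubule-like balance was 52.4% in Kif3aΔTub and 46.7% in WT (0.33, -0.71 to 1.38), and the thick ascending limb-like one was 35.3% in Kif3aΔTub and 42.4% in WT (-0.43, -1.21 to 0.36). Endothelium-like cells had 58.7% in Kif3aΔTub and 55.0% in WT (0.21, -1.41 to 1.81), an interval too wide to set against the collecting duct classes.

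Set against Kifap3, the same classes stood apart. Principal-like cells had 0.142 Kif3a UMIs per Kifap3 UMI in Kif3aΔTub and 0.292 in WT, a log2 balance of -1.04 (-1.68 to -0.35), and intercalated-like cells had 0.186 in Kif3aΔTub and 0.366 in WT (-0.97, -1.71 to -0.25), which at the 25% limit was -0.73 (-1.68 to 0.25). In thick ascending limb-like cells the balance was 0.172 in Kif3aΔTub and 0.275 in WT (-0.68, -1.34 to 0.01), an interval that just reaches 0. Proximal tubule-like cells lay on the other side, with 0.351 in Kif3aΔTub and 0.275 in WT (0.35, 0.02 to 0.68), though the interval included 0 at the 25% limit (0.15, -0.27 to 0.58) and at clustering resolution 2 (0.36, -0.03 to 0.74). Distal convoluted tubule-like cells had 0.284 in Kif3aΔTub and 0.296 in WT. The balance between the partners themselves, Kifap3 per Kif3b UMI, was 3.1 in Kif3aΔTub and 3.84 in WT principal-like cells, and its interval included 0 on the log2 scale in each of the 6 classes.

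Against Kif3c, the balance was lower in Kif3aΔTub principal-like cells, at 1.46 Kif3a UMIs per Kif3c UMI and 5.60 in WT, a log2 value of -1.93 (-3.69 to -0.52) that rests on 5 WT Kif3c UMIs. The thick ascending limb-like value was -1.51 (-3.05 to -0.17), with 77 Kif3a to 43 Kif3c UMIs in Kif3aΔTub and 36 to 7 in WT, and its interval included 0 at the 25% limit. The intervals of the other 4 classes included 0. The partners are set against the same Kif3a counts, so their values in a class are not independent of each other.

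**Figure D2:**
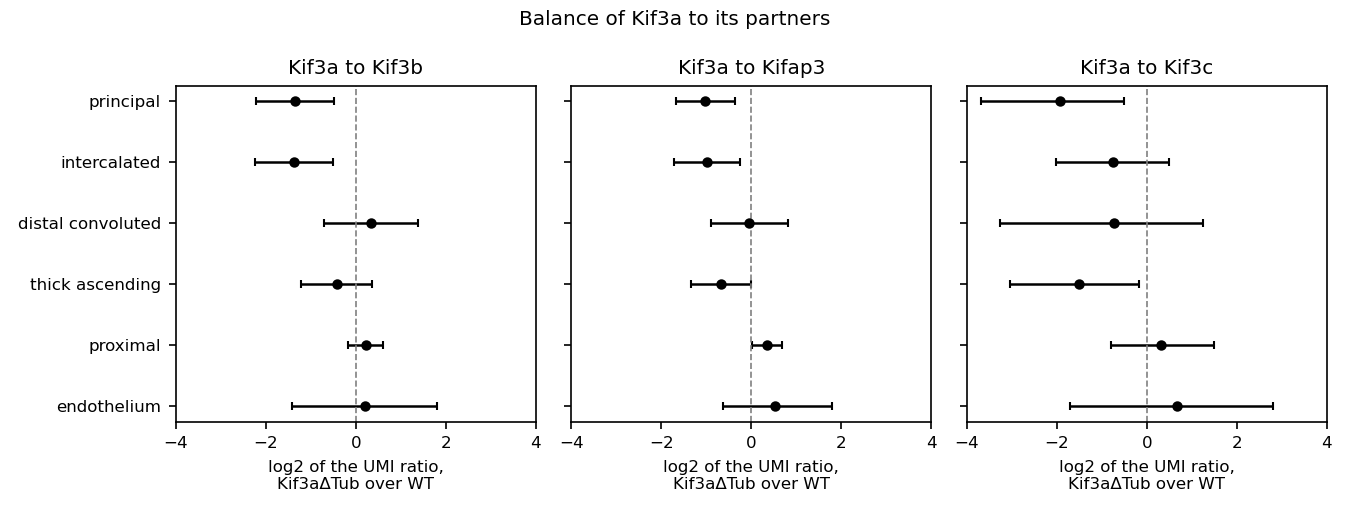
Log2 of the Kif3a-to-partner UMI ratio, Kif3aΔTub over WT (horizontal axes), for Kif3b, Kifap3 and Kif3c in 6 cell classes; points are 1 library against 1 library and bars are exact conditional 95% intervals. The principal-like points lie at -1.35, -1.04 and -1.93, left of the dashed line at 0, and the proximal tubule-like points lie at 0.22, 0.35 and 0.31.

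The libraries mostly filled different clusters of the same class, so the classes were also opened into their clusters. Kif3aΔTub principal-like cells lay in cluster 1 (718 cells), cluster 6 (1092 cells, led by the injury gene Lcn2), cluster 12 (279), cluster 13 (209) and cluster 14 (252, with Lcn2 among its leading genes), while 142 of the WT cells lay in cluster 30. Kif3a was 30.3% of the Kif3a and Kif3b pair in cluster 1, 29.3% in cluster 6 and 35.4% in cluster 13, against 53.2% (38.1% to 67.9%) in the WT cells of cluster 30. The exception was cluster 14, at 62.5% from 10 Kif3a and 6 Kif3b UMIs, whose cells had a median mitochondrial share of 27.6%. Lcn2 stood at 4492 CPM in cluster 1 and 10356 CPM in cluster 6, against 140 CPM in WT cluster 30. Without clusters 6 and 14 the Kif3b balance was -1.26 (-2.18 to -0.36), close to the value with them.

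Intercalated-like cells offer a comparison inside shared clusters. In cluster 18, with Slc26a4, the anion exchanger of base-secreting cells, among its leading genes, 104 Kif3aΔTub cells had 10 Kif3a and 32 Kif3b UMIs, and 116 WT cells had 18 Kif3a and 15 Kif3b UMIs. The log2 balance there was -1.91 (-3.54 to -0.37), on the same side as the class as a whole. Against Kifap3 the cluster 18 balance was -0.89 (-2.30 to 0.44), an interval that included 0. Median mitochondrial shares in cluster 18 were 13.2% in Kif3aΔTub and 26.7% in WT cells. In cluster 19, led by Aqp6 and Slc4a1, 62 Kif3aΔTub cells had 1 Kif3a and 5 Kif3b UMIs and 169 WT cells had 30 Kif3a and 26 Kif3b UMIs, a balance of -2.49 (-8.14 to 0.80). The cluster 19 balance to Kifap3 was -2.23 (-7.71 to 0.64), with median mitochondrial shares of 2.60% in Kif3aΔTub and 24.1% in WT cells. Cluster 21, with 284 Kif3aΔTub cells and no WT cell, held 36.5% Kif3a.

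The distal convoluted tubule-like class was not uniform in Kif3a. All 76 of its Kif3aΔTub UMIs came from cluster 22, which held 249 Kif3aΔTub cells and no WT cell (23.4 CPM, 53.9% of the pair). In cluster 25, shared by 60 Kif3aΔTub and 209 WT cells, the Kif3aΔTub cells had 0 Kif3a UMIs in a total of 366683, which allows up to 8.18 CPM, and 4 Kif3b UMIs. The WT cells of cluster 25 had 21 Kif3a UMIs (13.5 CPM) and 24 Kif3b UMIs. The class value of 0.62 is therefore a comparison of cluster 22 with cluster 25 more than of like cells, and the balance in cluster 25 has no lower bound and an upper bound of 0.96.

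Thick ascending limb-like cells were split almost completely, with 610 Kif3aΔTub cells in cluster 2 (35.3% Kif3a) and 330 WT cells in cluster 32 (42.0%). Proximal tubule-like cells were split likewise between clusters 0 and 5 in Kif3aΔTub (41.7% and 47.4%) and clusters 8, 26, 27, 29 and 31 in WT (41.2% to 52.6%). The ranges of these proximal clusters overlapped. Of the 165 Kif3aΔTub Kif3a UMIs of the class, 144 lay in cluster 5, at 16.1 CPM. Cluster 0 had 15 Kif3a UMIs and 7.79 CPM, within the 7.39 to 9.40 CPM of the WT proximal clusters. The higher Kif3a level of the Kif3aΔTub class thus came mostly from cluster 5. Endothelium-like clusters 15 and 16 held cells of both libraries, and the Kif3b balance was -1.19 (-4.10 to 1.39) in cluster 15 and 1.15 (-1.04 to 3.42) in cluster 16. An unnamed cluster of 297 Kif3aΔTub and 22 WT cells, led by principal and intercalated markers together, had 31.0% Kif3a in Kif3aΔTub. A second unnamed one, of 70 Kif3aΔTub cells led by Tagln, Akap12 and Vim, had 60.0% and the highest Kif3a level of any Kif3aΔTub cluster with at least 50 cells, at 36.3 CPM.

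**Figure D3:**
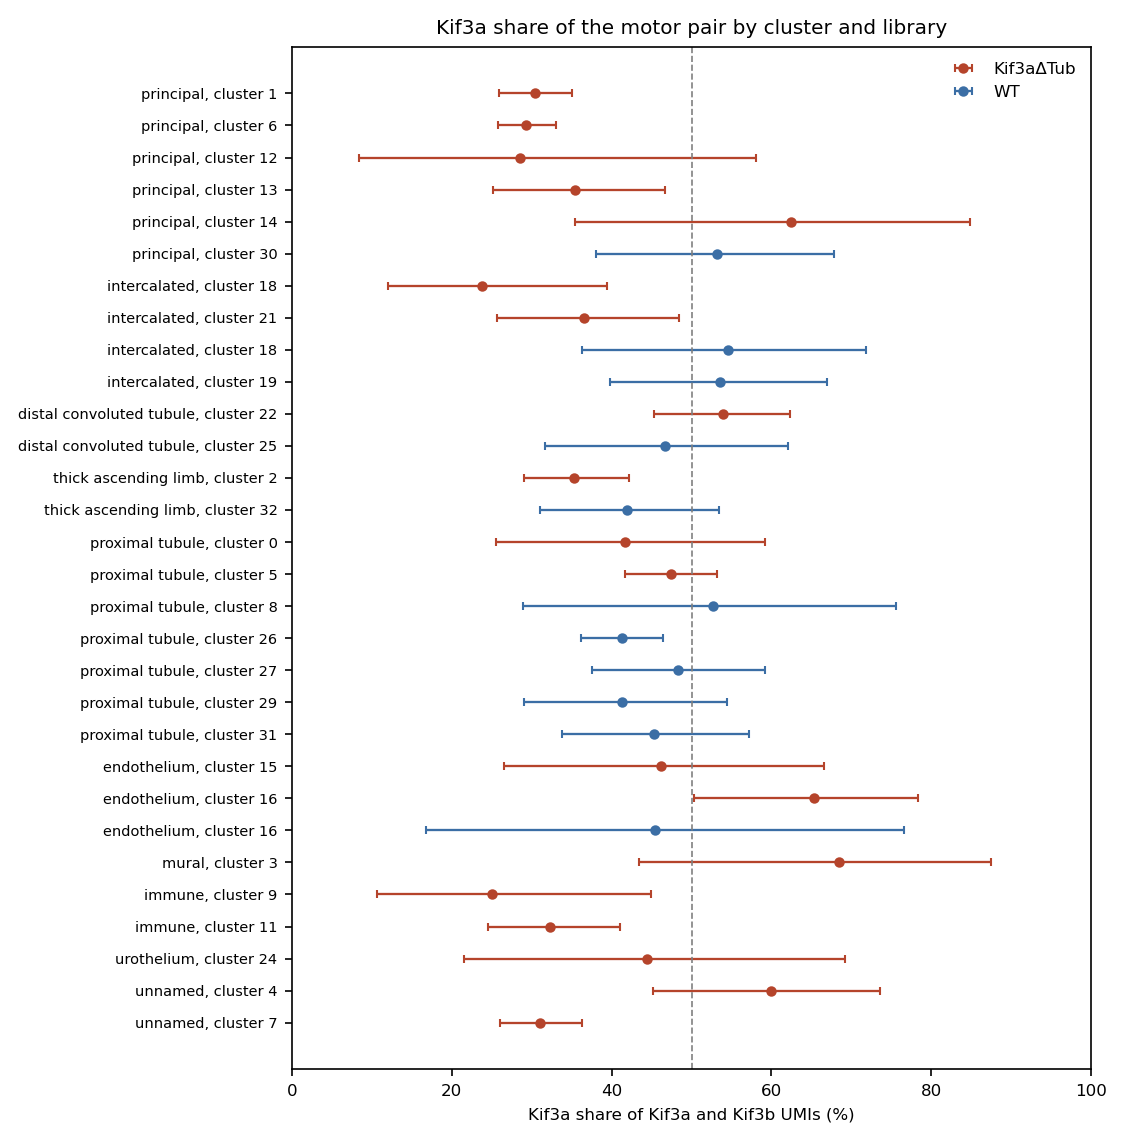
Kif3a share of the Kif3a and Kif3b UMIs (horizontal axis, percent) in each cluster and library with at least 10 UMIs of the pair, grouped by class, with Kif3aΔTub in red above WT in blue within a class; bars are exact 95% binomial intervals and the dashed line marks equal counts. Principal-like clusters 1, 6 and 13 of Kif3aΔTub lie between 29.3% and 35.4%, and WT cluster 30 lies at 53.2%.

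A low share of Kif3a in the pair was also seen outside the tubule in the Kif3aΔTub library. Immune-like cells of that library, 1035 of them, had 51 Kif3a UMIs (10.6 CPM, 7.91 to 14.0) and 115 Kif3b UMIs (24.0 CPM), so Kif3a was 30.7% of the pair (23.8% to 38.3%), close to the principal-like 30.6%. The 39 WT immune-like cells had no Kif3a UMI in 97141, which allows up to 30.9 CPM, so no WT value of that class bears on this. Kifap3 was low in the same cells, at 21.3 CPM, and stood at 0.887 UMIs per Kif3b UMI against 3.1 in Kif3aΔTub principal-like cells.

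Free RNA in the droplets was gauged from genes that a class should lack. In the Kif3aΔTub library 8 tubule markers stood in immune-like cells at 8.19% of their library level, a share that would carry 1.00 CPM of Kif3a, and the 3 C1q genes of macrophages stood in principal-like cells at 3.98%, which would carry 0.486 CPM. Both are under the measured Kif3a levels of 10.6 CPM in the immune-like and 10.4 CPM in the principal-like cells. These values take free RNA to have the make-up of the kept cells, and free RNA as a source of the Kif3a counts was not tested. The neutrophil-led cluster 23, of 83 Kif3aΔTub cells with a median of 999 UMIs, had Kif3a in 0 cells, which allows up to 3.61%.

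The share of cells with at least 1 UMI depends on depth as well as level. Kif3a was seen in 12.2% of Kif3aΔTub (10.9% to 13.5%) and 14.3% of WT principal-like cells (9.46% to 20.4%), at median depths of 9554 UMIs in Kif3aΔTub and 6531 UMIs in WT, and in 4.44% of Kif3aΔTub immune-like cells at a median of 4140 UMIs. With each cell thinned to 2000 UMIs, the shares were 1.58% (33 of 2090 cells) in Kif3aΔTub and 3.33% (5 of 150) in WT principal-like cells, and 2.26% in Kif3aΔTub immune-like cells, with overlapping intervals. At that depth the principal-like shares do not stand above the immune-like one, so detection per cell was not read further.

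Barcodes left out for a mitochondrial share of at least 50%, 706 in the Kif3aΔTub library and 2564 in WT, held the members too. With mitochondrial genes taken out of the total they had 12.5 CPM of Kif3a in Kif3aΔTub (8 UMIs) and 10.8 CPM in WT (42 UMIs), and 28.1 CPM of Kif3b in Kif3aΔTub (18 UMIs) and 14.9 CPM in WT (58 UMIs).

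The other transport machinery of the cilium did not share the low position of Kif3a in principal-like cells. Of 28 genes of dynein-2, the motor that returns IFT trains to the cell body, and of the IFT-B and IFT-A complexes that form the trains, all were measured in principal-like cells, and 3 were at least 1.5-fold higher and 0 at least 1.5-fold lower in Kif3aΔTub relative to the median gene, beside background shares of 21.4% and 18.4%. The medians there were 0.28 for 5 dynein-2 genes, -0.02 for 17 IFT-B genes and 0.18 for 6 IFT-A genes, beside -0.01 for all genes. Ift43, an IFT-A subunit, was the largest difference, at 121 CPM in Kif3aΔTub and 53.5 CPM in WT principal-like cells (log2 ratio 1.17, 0.83 to 1.55). Ift140, also among the 3 higher genes, had 234 Kif3aΔTub and 4 WT UMIs and is no support for a difference. Ift122 (-0.58) and Dync2h1 (-0.50) fell just short of the lower fold relative to the median gene. Before that shift their log2 ratios had intervals of -0.95 to -0.09 and -0.85 to -0.04, both below 0.

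Ift43 was also higher in Kif3aΔTub thick ascending limb-like cells (89.7 against 30.4 CPM in WT) and distal convoluted tubule-like cells (76.3 against 25.6 CPM in WT), and nearly equal, at 71.7 CPM in Kif3aΔTub and 72.4 CPM in WT, in the endothelium-like class. The gap was smaller in intercalated-like cells (85.4 against 60.7 CPM in WT) and proximal tubule-like cells (38.8 against 29.2 CPM in WT). Relative to the median gene, Ift43 stood at only 0.25 and 0.15 in these 2 classes. The partner subunit Ift122 ran the other way in principal-like cells, at 27.5 CPM in Kif3aΔTub and 39.7 CPM in WT, and in proximal tubule-like cells, at 14.0 CPM in Kif3aΔTub and 25.1 CPM in WT, but was close to equal in intercalated-like cells, at 18.4 CPM in Kif3aΔTub and 17.7 CPM in WT, and in endothelium-like cells, at 18.2 CPM in Kif3aΔTub and 18.5 CPM in WT. It had 28.6 CPM in Kif3aΔTub and 38.2 CPM in WT thick ascending limb-like cells, and 19.6 CPM in Kif3aΔTub and 22.4 CPM in WT distal convoluted tubule-like cells. Dync2h1, the heavy chain of dynein-2, stood at 31.9 CPM in Kif3aΔTub and 43.8 CPM in WT principal-like cells and at 24.1 CPM in Kif3aΔTub and 35.7 CPM in WT intercalated-like cells. It had 20.4 CPM in Kif3aΔTub and 28.1 CPM in WT proximal tubule-like cells, and 24.7 CPM in Kif3aΔTub and 26.1 CPM in WT thick ascending limb-like cells. Values were higher in Kif3aΔTub, with intervals that included 0, in distal convoluted tubule-like cells, at 23.8 CPM in Kif3aΔTub and 19.2 CPM in WT, and in endothelium-like cells, at 12.5 CPM (22 UMIs) in Kif3aΔTub and 4.62 CPM (3 UMIs) in WT. Over the 28 genes, 1 of 27 measured was higher and 4 lower in intercalated-like cells (13.9% and 12.3% of all genes), 1 and 3 of 26 in distal convoluted tubule-like (19.9% and 19.6%) and 2 and 2 of 28 in thick ascending limb-like cells (22.2% and 19.1%). In proximal tubule-like cells 0 were higher and 5 of 28 lower (17.9% and 14.0% of all genes). Endothelium-like cells had 1 higher and 7 of 20 lower (11.9% and 11.7%), a count of lower genes that was 0 of 2 with at least 100 UMIs per gene and 11 of 28 with at least 1 UMI. The medians of dynein-2, IFT-B and IFT-A in the proximal tubule-like class were -0.13 to -0.06 beside 0.03 for all genes, while Kif3a stood at 0.53.

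**Figure D4:**
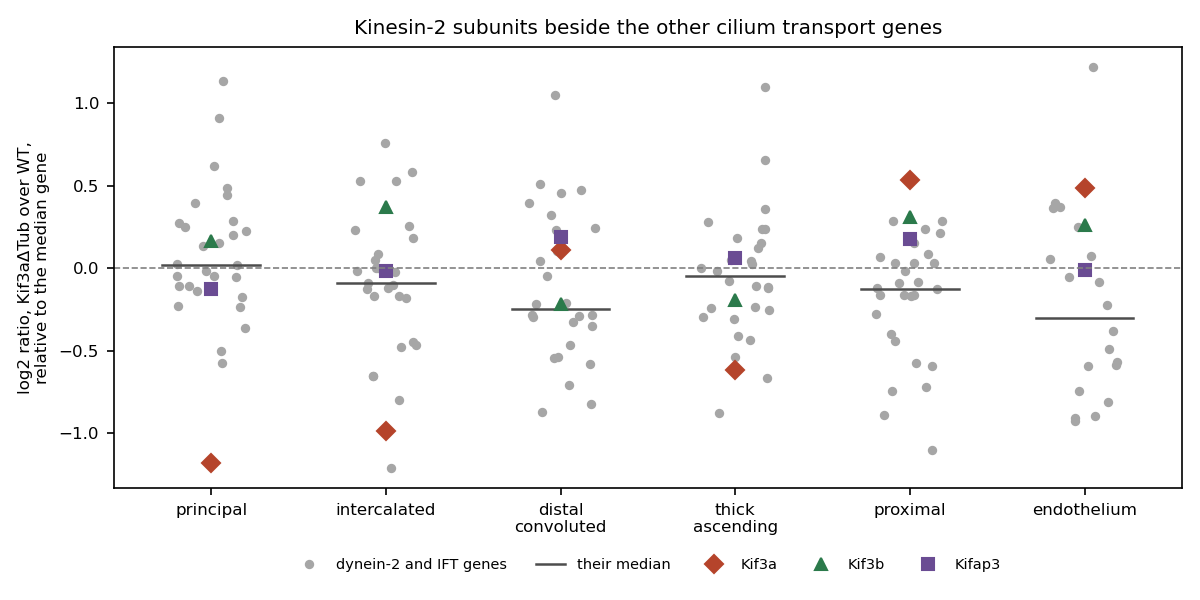
Log2 ratio of Kif3aΔTub over WT relative to the median gene (vertical axis) for Kif3a, Kif3b, Kifap3 and, in grey with their median as a bar, the measured genes of dynein-2, IFT-B and IFT-A, by cell class; each point is 1 gene in 1 library against 1 library. Kif3a lies at -1.18 below all 28 grey points in principal-like cells and at 0.53 above all of them in proximal tubule-like cells.

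Other microtubule motors differed by group. Kinesin-1, the main long-range carrier of the cell body, had medians between -0.34 in endothelium-like and 0.46 in distal convoluted tubule-like cells; its light chain Klc3, which overlaps Ercc2 on the opposite strand, stood at 35.4 CPM in Kif3aΔTub and 4.65 CPM in WT thick ascending limb-like cells and at 28.4 CPM in Kif3aΔTub and 12.98 CPM in WT principal-like cells. The kinesin-1 heavy chain Kif5c stood at 14.4 CPM in Kif3aΔTub and 2.21 CPM in WT intercalated-like cells, from 61 Kif3aΔTub and 7 WT UMIs. Klc3 had 271 Kif3aΔTub and 15 WT UMIs in thick ascending limb-like cells and 948 Kif3aΔTub and 16 WT UMIs in principal-like cells. Klc3 and Kif5c thus passed the 20-UMI minimum through the Kif3aΔTub library, and these values are no support for a difference. Dynein-1 and dynactin, the inbound motor of the cell body, had 0 of 10 genes lower in each of the 6 classes. In distal convoluted tubule-like and in endothelium-like cells 1 was higher, and medians ran from 0.00 to 0.31. Of all genes, 11.7% to 19.6% were lower, by class. The higher shares were 19.9% in distal convoluted tubule-like and 11.9% in endothelium-like cells, so 1 of 10 was not above either. Kinesins of mitosis had 1 of 12 genes higher and 7 lower in principal-like cells, the lower ones resting on 2 to 27 WT UMIs. Among these the kinetochore motor Cenpe stood at 6.26 CPM in Kif3aΔTub and 21.9 CPM in WT, from 27 WT UMIs. In thick ascending limb-like and in proximal tubule-like cells 4 of 8 were higher and 0 lower. Cenpe had 8.88 CPM in Kif3aΔTub and 0.931 CPM in WT thick ascending limb-like cells. It had 5.37 CPM in Kif3aΔTub and 3.34 CPM in WT proximal tubule-like cells. The 4 higher ones in thick ascending limb-like cells had 3 to 16 WT UMIs and passed the 20-UMI minimum through the Kif3aΔTub library. They are therefore no support for a difference. Of all genes, 22.2% were higher and 19.1% lower in thick ascending limb-like cells, and 17.9% and 14.0% in proximal tubule-like cells. For the principal-like counts here and below, the shares of all genes are 21.4% higher and 18.4% lower. Among 16 other kinesins in principal-like cells 2 were higher and 6 lower. The axonal motor Kif1a stood at 12.6 CPM in Kif3aΔTub and 1.62 CPM in WT, from 2 WT UMIs. Kif12, a kinesin linked to cystic kidney disease in the mouse, stood at 45.1 CPM in Kif3aΔTub and 79.5 CPM in WT principal-like cells. It ran the other way in thick ascending limb-like cells, at 48.8 CPM in Kif3aΔTub and 22.7 CPM in WT. The same held in distal convoluted tubule-like cells, at 41.5 CPM in Kif3aΔTub and 19.2 CPM in WT. Proximal tubule-like cells had 76.5 CPM of Kif12 in Kif3aΔTub and 81.4 CPM in WT, and intercalated-like cells 7.33 CPM in Kif3aΔTub and 5.38 CPM in WT. The higher-called Kif1a, Kif7 (49 Kif3aΔTub and 0 WT UMIs) and mitotic Kif23 (401 Kif3aΔTub and 8 WT UMIs) passed the 20-UMI minimum through the Kif3aΔTub library. Their place among the higher genes is therefore no support for a difference. The cargoes of the heterotrimer outside the cilium had 1 of 4 genes past the fold in principal-like cells, the junction protein Ctnnb1 at 217 CPM in Kif3aΔTub and 133 CPM in WT.

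Across 15 sums, 1 for each library and class with at least 50 cells, the levels of Kif3a were most like those of Nbas (Pearson r 0.81), Fgfr1 (0.80), Zcchc4 (0.80), Man2a1 (0.78) and Pds5b (0.76) among 13650 genes. Its partners ranked far lower, with Kifap3 at place 1549 (0.46), Kif3c at 2532 (0.39) and Kif3b at 6622 (0.12). Kif3b was most like Hgsnat (0.87), Smpd5 (0.87), Spidr (0.84), Prmt9 (0.82) and Wsb1 (0.82). These sums share 2 libraries, their depths and their preparation, and the values describe likeness in these sums only.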

How the data were processed

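UMI counts per gene and barcode were used as deposited; Cell Ranger 3.1.0 is named per the file headers, and Cell Ranger 3.0.2, Seurat 3.1.1 and the build mm10 are named per the submitters' processing notes. Gene names were read from the deposited feature tables, and positions came from GENCODE vM21. Cells with at least 500 UMIs, 200 genes and under 50% mitochondrial UMIs were kept, and doublets were called per library with Scrublet in scanpy 1.11.5 and removed (2.35% of Kif3aΔTub cells, 1.24% of WT cells). Both libraries were clustered together without the 5 members (2000 variable genes, 30 components, 15 neighbours, Leiden resolution 1), giving 33 clusters. A cluster was named from at least 3 markers with 50 CPM, 20 UMIs and a level 2 times the median of all remaining clusters, and 3 clusters (409 Kif3aΔTub and 22 WT cells) stayed unnamed. UMIs were summed per library and class. Levels carry exact Poisson intervals, shares Clopper-Pearson intervals, log2 ratios the conditional interval of a pair of Poisson sums and balances the conditional odds ratio interval (scipy 1.17.1), all at 95%. The ratio and balance intervals were run on simulated counts. Those were independent Poisson draws without spread between cells or libraries, so they check the computation and not whether the intervals hold for these data. A count of 0 allows 3 counts, a tighter limit than the upper end of the exact interval (for Kif3a in WT immune-like cells, 30.9 against 38.0 CPM). PCR and capture error are not covered. The median-gene shift used genes with at least 100 UMIs. edgeR 4.0.16 and DESeq2 1.42.0 were used for scaling factors alone. No test was run, since each genotype has 1 library.

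The members, gene lists, markers and tests were chosen with earlier results of these data known, and the naming rule, the unshared-barcode and Lcn2 alternatives and the promoter motifs after the data were seen. Named genes are the 5 members, up to 3 genes per list with the largest absolute log2 ratio among those with at least 50 UMIs in the higher library, genes named to follow one of these across classes, and the 5 genes most correlated with Kif3a and with Kif3b.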

Additional observations from a re-analysis of the deposited data

Results flagged for a closer look

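The Kif3a log2 ratio of Kif3aΔTub over WT had opposite signs in different cell classes, with intervals that exclude 0 on each side. It was 0.79 in proximal tubule-like cells, -1.15 in principal-like cells and -0.75 in intercalated-like cells. The proximal value rested mostly on Kif3aΔTub cluster 5 (16.1 CPM), while Kif3aΔTub cluster 0 had 7.79 CPM, within the range of the WT proximal clusters. With 1 library per genotype, the difference between classes was not tested.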

How the results depend on the processing

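No paired analysis was possible because each genotype has 1 library and no replicate number, and for the same reason no library could be left out. The Kif3a ratio and its balance to Kif3b kept their sign in principal-like and intercalated-like cells under every alternative run, from -0.96 to -1.29 and -0.75 to -1.42 in principal-like and from -0.48 to -1.0 and -0.46 to -1.55 in intercalated-like cells. Removing the shared barcodes, or clusters led by Lcn2, moved no result outside its counting interval, nor did a minimum of 1000 UMIs. Values outside the counting interval follow. With cells thinned to 2000 UMIs, which leaves few UMIs and intervals that include 0 for both Kif3a balances in the collecting duct classes, principal-like values were -0.40 for Kif3b, -0.81 for Kifap3 and -0.28 for the Kif3a to Kifap3 balance. Intercalated-like values were -0.017 for Kif3b (its sign turned), -1.42 for Kif3c, -0.46 for the Kif3b balance and 1.15 for the Kif3c balance; Kif3a was -0.75 in thick ascending limb-like and 1.19 in proximal tubule-like cells.

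Distal convoluted tubule-like values were the least stable. Kif3a was -0.21 at a mitochondrial limit of 25%, -0.25 at clustering resolution 2 and -3.34 with doublets kept, where the large Kif3aΔTub cluster was no longer named and 0 Kif3a UMIs were left. At the 25% limit Kif3b was -0.56 and Kif3c -1.0. Kifap3 was 0.24 by trimmed mean of M values, 0.23 by median of ratios, 0.27 without mitochondrial genes in the total, 0.24 at resolution 2 and -0.076 with doublets kept (its sign turned). Thick ascending limb-like Kifap3 was 0.11, 0.094 and 0.073 by the same 3 scalings and 0.21 at the 25% limit.

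In proximal tubule-like cells Kif3a was 0.47 by trimmed mean of M values, 0.46 by median of ratios and 0.45 at the 25% limit, where its Kif3b balance was -0.24. Kif3b was 0.25 and 0.25 and Kifap3 0.12 and 0.11 by these 2 scalings, and Kifap3 was 0.26 without mitochondrial genes and 0.19 at resolution 2. The cause of these shifts was not tested. With at least 100 UMIs per gene, dynein-2 and IFT genes counted as lower were 2 in intercalated-like, 1 in distal convoluted tubule-like, 1 in thick ascending limb-like and 0 in endothelium-like cells, and as higher 0 in endothelium-like cells; with no filter, 5 were lower in distal convoluted tubule-like and 11 in endothelium-like cells and 2 higher in intercalated-like cells, and the other kinesins had a median of 0.63 in thick ascending limb-like cells. Balances in distal convoluted tubule-like cells could not be had with doublets kept, nor the Kif3c balance there after thinning. Kif17 and the smaller classes are limited by depth.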
